A study of Mus musculus with 26 samples.

Results

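Midkine, encoded by Mdk, was followed through 5 exocrine glands of the head in both sexes of BALB/c mice. The gene was found by its symbol in the annotation of the array, which gave 1 probe among 8841 genes on the array, and this probe had a value on all 26 arrays. Mdk was chosen by its measured levels in these arrays, namely its sex differences and its spread over the glands, so its levels and differences are given as descriptions, with their errors and without a test. RefSeq also lists a processed copy, Mdk-ps1, and whether the probe reads its transcripts was not tested.

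The 10 groups were males and females of each gland (meibomian, lacrimal, parotid, sublingual and submandibular), and the labels name no treatment. Each array held RNA from a separate pool of 5 animals, 10 glands in all. There were 3 pools per sex (A, B and C) for the submandibular, lacrimal and meibomian glands and 2 (A and B) for the sublingual and parotid glands. The labels give no age, hormonal state or array platform.

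Midkine is a small secreted growth factor that binds heparin, and with pleiotrophin, the product of Ptn, it makes up a family of its own. It is held by the sulfated sugar chains of proteoglycans and signals through several cell surface receptors, among them receptor phosphatases, integrins, Alk and members of the LDL receptor family. It was first found as a gene that retinoic acid induces. It is abundant in the embryo, where it marks epithelia that meet mesenchyme, and lower in most adult tissues.

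Values are scaled intensities, in which the median probe of every array lay between 0.929 and 0.955 and the brightest between 103 and 868. After a filter on dim probes 8191 probes were compared. All 4 submandibular, 4 lacrimal, 4 meibomian and 2 parotid markers that passed the filter were called higher in their own gland. Of the submandibular markers 3 were also called higher in the sublingual and 2 in the parotid gland. Their sums were 369 to 491 in female submandibular, 315 to 351 in male sublingual and 163 to 368 in male parotid pools. Of the lacrimal markers 2 were also called higher in the submandibular, 2 in the sublingual and 1 in the parotid gland. Their sums stood at 1348 or more in lacrimal pools and at most 669 elsewhere. Both parotid markers were also called higher in the submandibular and sublingual glands, with sums that overlap (306 to 1064 in male parotid and 418 to 661 in male submandibular pools), so they do not tell the parotid from these glands. The sublingual gland had 1 marker left, Bpifb2, which was not higher there. Neither label could thus be checked in this way. The arrays also fell into a pair of sets along the first principal component of their deviations from the gland means, which carried 41.53% of that variance over 4233 probes. Set 1 held both sexes of submandibular B, sublingual A, parotid A, lacrimal B and meibomian A, and set 2 the rest. What separates the sets is not given in the labels.

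In which glands did Mdk differ between the sexes? In the lacrimal gland the female pools A, B and C measured 2.67, 5.72 and 3.14, and the male pools 249, 94.4 and 137. The lowest male pool stood far above the highest female pool. The geometric means were 3.63 in females and 148 in males, a 40.7-fold difference (5.35 ± 0.44 on the log2 scale, male minus female ± SE, n = 3 pools per sex, 95% interval 4.43 to 6.26). It was the 6th largest male excess among the 8191 probes of this gland. Every male pool lay above every female pool for 5.67% of the probes that could be compared in this way, so the separation alone is less unusual than its size.

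In the submandibular gland the female pools measured 5.40, 5.42 and 13.7, and the male pools 81.6, 63.2 and 128. The groups did not overlap here either, a property of 7.92% of the probes. The means were 7.38 and 87.0, an 11.8-fold difference (3.56 ± 0.44, n = 3 pools per sex, 95% interval 2.64 to 4.48), the 18th largest male excess in this gland. Male pools of these glands thus held Mdk among the brightest probes: 97.96% to 99.07% of probes lay below it in the male lacrimal arrays and 98.01% to 99.07% in the male submandibular arrays. In the female arrays these shares were 68.62% to 83.46% and 80.52% to 90.67%. The probe was therefore measured well above the dimmest probes in females as well, and the folds are not bounds.

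The sublingual gland gave a smaller and uncertain difference. Its female pools A and B measured 10.1 and 25.5, and its male pools 23.5 and 29.9. The second female pool exceeded the first male pool, so the sexes overlapped. The difference of 0.73 ± 0.54 (1.65-fold, n = 2 pools per sex, 95% interval -0.40 to 1.85) depended on the female pools: it was 0.05 without female sublingual A and 1.40 without female sublingual B.

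In the parotid gland Mdk was bright in both sexes, at 50.2 and 65.2 in the female pools and 48.5 and 73.9 in the male pools. The male and female pools overlapped. The difference was 0.07 ± 0.54 (1.05-fold, n = 2 pools per sex), with a 95% interval of -1.06 to 1.19 that leaves room for about a doubling either way. In the meibomian gland the female pools measured 18.2, 10.2 and 12.1, and the male pools 16.8, 11.3 and 11.3. They overlapped too, with a difference of -0.02 ± 0.44 (n = 3 pools per sex, 95% interval -0.94 to 0.89). Over the mean of the 5 glands males exceeded females 3.82-fold (1.93 ± 0.22), the 6th largest male excess of all probes, a mean that rests on the lacrimal and submandibular glands. Since each array reads whole glands, fewer cells that make Mdk and less Mdk RNA per cell cannot be told apart.

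**Figure D1:**
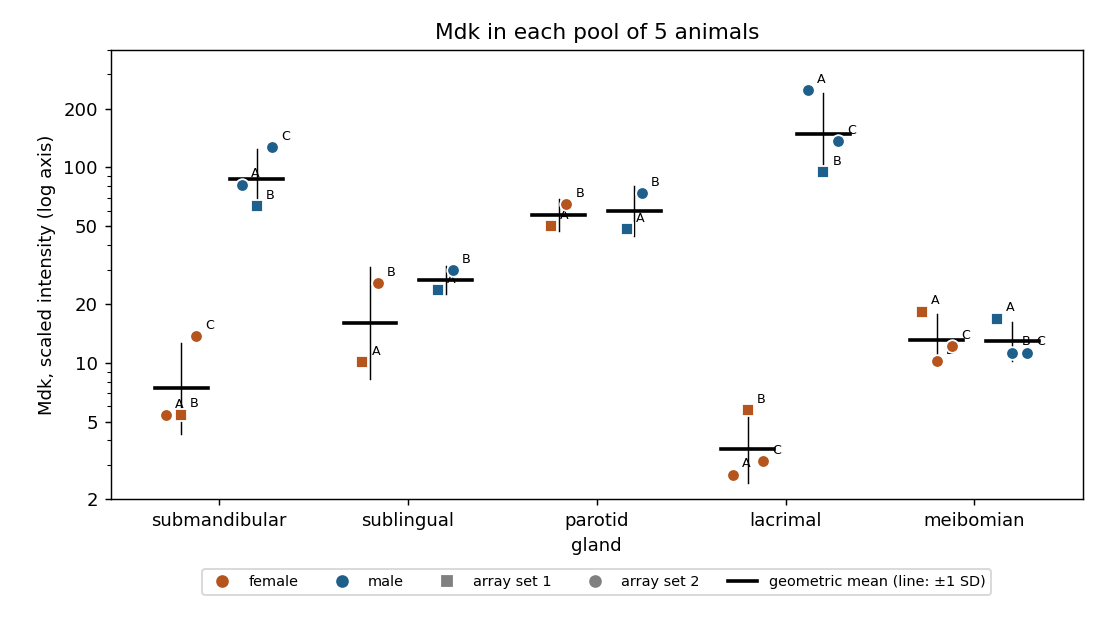
Scaled intensity of the Mdk probe (log axis) in each pool, by gland and sex. Points are pools with their letter, the shape marks the array set, horizontal bars are geometric means and vertical lines 1 SD on the log2 scale. Male lacrimal pools lie between 94.4 and 249 and female lacrimal pools between 2.67 and 5.72, while the sexes overlap in the sublingual, parotid and meibomian glands.

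Male and female arrays of the same gland and letter deviated together across probes, so Mdk was also read within these pairs. In the lacrimal gland the male array exceeded its female partner 93.2-fold in pair A, 16.5-fold in pair B and 43.7-fold in pair C. The direction was the same in all 3 pairs, while the size varied several-fold. In the submandibular gland the ratios were 15.1, 11.7 and 9.29, which lay much closer together. The sublingual pairs gave 2.34 and 1.17, the parotid pairs 0.966 and 1.13, and the meibomian pairs 0.922, 1.11 and 0.929, so the parotid and meibomian pairs did not share a direction.

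The lacrimal value differed between the array sets, but with a single pair in set 1 the set cannot be told apart from pool B. The single lacrimal pair of set 1 gave a log2 difference of 4.04. The pairs of set 2, A and C, gave 6.54 and 5.45, with a mean of 5.996. The female pool of set 1, B, was the highest female lacrimal pool and its male partner the lowest male pool. In the submandibular gland the sets gave 3.54 and 3.57, which is as large within each set as overall. In the sublingual gland they gave 1.22 and 0.23.

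**Figure D2:**
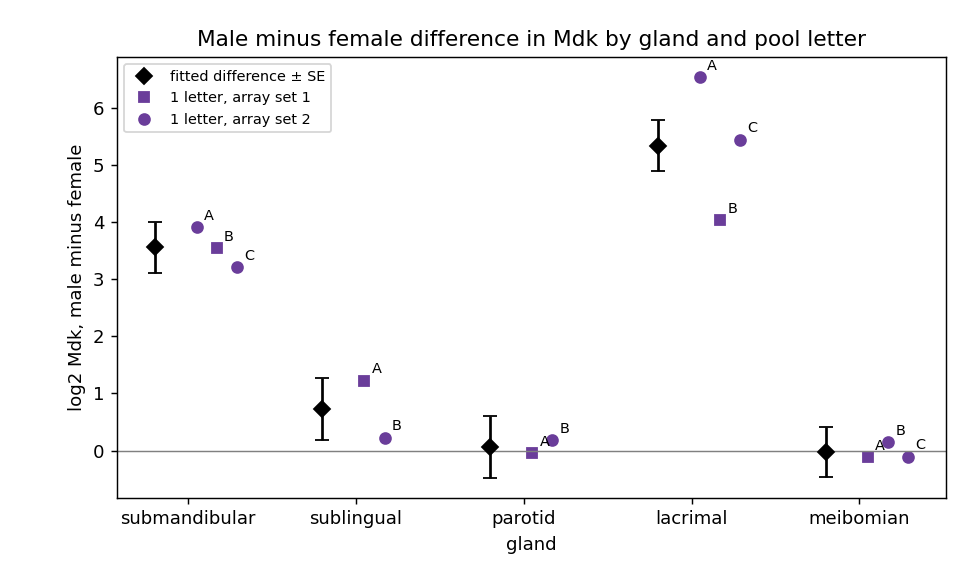
Mdk, log2 of the male over the female array of the same gland and pool letter, for each pair. Points are pairs shaped by array set, and 0 marks equal levels. All lacrimal and submandibular pairs lie far above 0, and the parotid and meibomian pairs lie on both sides of it.

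Some sets of markers of other cells separated male from female pools in the same glands, and others did not. Of all probes 1.94% were called higher and 0.671% lower in male submandibular glands. There the summed level of 5 measured smooth muscle and myoepithelium markers ran from 117 to 231 in male pools and from 39.6 to 66.7 in female pools. Of these markers 4 of the 5 were called higher in males. Skeletal muscle markers summed to 8.10 to 11.7 against 0.969 to 1.42 (3 of 4 called higher), and submandibular gland markers, among them products of the granular ducts, to 653 to 864 against 369 to 491 (3 of 4 called higher). Simple epithelium markers were at 205 to 225 against 145 to 176 (0 of 7 called). Nerve markers were at 5.63 to 6.75 against 9.15 to 10.3 (0 of 2 called) and T cell markers at 1.33 to 1.64 against 1.85 to 2.64 (0 of 3 called). Lacrimal gland markers were at 350 to 450 against 510 to 669 (1 of 4 called lower). Basal and stratified epithelium, fibroblast, endothelium, macrophage, B and plasma cell and adipocyte sums overlapped between the sexes, with 0 markers called. Sublingual, parotid and meibomian gland sums overlapped too, also with 0 called. Among single probes of this gland 7.92% had every male pool above every female pool.

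In the lacrimal gland B and plasma cell markers summed to 40.3 to 80.9 in males and 11.8 to 33.9 in females (1 of 4 called higher). Basal and stratified epithelium markers were at 5.55 to 16.1 against 4.04 to 5.54 (1 of 5 called higher), meibomian gland markers at 2.004 to 5.68 against 1.23 to 1.61 (1 of 4), and Bpifb2, the sublingual marker, at 3.32 to 12.3 against 0.404 to 0.598 (called higher). Nerve markers were at 1.10 to 1.60 against 1.86 to 2.19 (1 of 2 called lower). Adipocyte markers overlapped between the sexes, at 10.04 to 27.6 against 19.6 to 43.5, with 1 of 4 called lower in males. Simple epithelium, smooth muscle and myoepithelium, fibroblast, endothelium, macrophage, T cell and skeletal muscle sums also overlapped, with 0 markers called. Submandibular, parotid and lacrimal gland sums did as well, with 0 called. Among single probes 5.67% had every male lacrimal pool above every female one. The part of these cell types in the Mdk differences was not tested.

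How did the glands rank, and did the rank depend on sex? Ordered by geometric mean, Mdk stood at 148 in male lacrimal, 87.0 in male submandibular, 59.8 in male parotid, 57.2 in female parotid, 26.5 in male sublingual, 16.0 in female sublingual, 13.1 in female meibomian, 12.9 in male meibomian, 7.38 in female submandibular and 3.63 in female lacrimal glands. The SD between pools on the log2 scale ran from 0.25 in male sublingual to 0.95 in female sublingual glands. Of the 9 steps between neighbours in this order, the pools failed to overlap at 1, that from female parotid to male sublingual (2.16-fold, 1.11 ± 0.54 on the log2 scale). With so few pools per group, overlap does not decide whether neighbours differ, at that step or the others. The order was also taken from these same means.

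The lacrimal gland took the last rank of the 5 glands in females and the first in males. Against the mean of the other 4 glands of the same sex, lacrimal Mdk was lower by 2.25 on the log2 scale in females, at 3.63 against 17.3, and higher by 2.02 in males, at 148 against 36.5. The submandibular gland moved from the 4th rank in females (-0.97) to the 2nd in males (1.06). The parotid gland was highest in females, at 57.2 against 8.67 in the other glands (2.72), and 3rd in males (0.39). The sublingual gland was 2nd in females (0.43) and 4th in males (-1.08), and the meibomian gland 3rd in females (0.07) and last in males (-2.38). The distance from the highest to the lowest gland was 15.7-fold in females, from parotid to lacrimal, and 11.5-fold in males, from lacrimal to meibomian.

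With the sexes averaged, these opposite lacrimal ranks cancel. Parotid Mdk was 2.94-fold above the mean of the other 4 glands (1.55 ± 0.29) and meibomian Mdk 2.23-fold below it (-1.16 ± 0.25). The sublingual (-0.33 ± 0.29), lacrimal (-0.12 ± 0.25) and submandibular glands (0.05 ± 0.25) lay near it. A comparison of glands that pools the sexes would thus place lacrimal Mdk close to the middle, a level that no lacrimal pool had.

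Which other genes were much higher in males in both glands? A male excess of at least 4-fold was measured for 110 lacrimal and 71 submandibular probes, and 8 probes had it in both, 7.27% and 11.3% of these lists. At 8-fold or more there were 42 and 27 probes, and 2 in both, Mdk and the Y-linked gene Eif2s3y (4.76% and 7.41%). These genes were picked after their values were seen. Of the 8 probes 5 had a symbol: beside Mdk and Eif2s3y (4.07 ± 0.56 lacrimal, 5.16 ± 0.56 submandibular) they were the sialyltransferases St3gal5 (4.03 ± 0.33 and 2.18 ± 0.33) and St6galnac2 (2.19 ± 0.37 and 3.57 ± 0.37), and Serpina1d (3.25 ± 0.44 and 2.59 ± 0.44), an alpha-1-antitrypsin gene. St3gal5 makes the ganglioside GM3 and St6galnac2 adds sialic acid to O-linked sugars. In the parotid gland the sex differences of Mdk, Serpina1d, St3gal5 and St6galnac2 were 0.07, -0.15, 0.08 and 0.18, and in the meibomian gland -0.02, -0.04, 0.30 and -0.06.

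**Figure D3:**
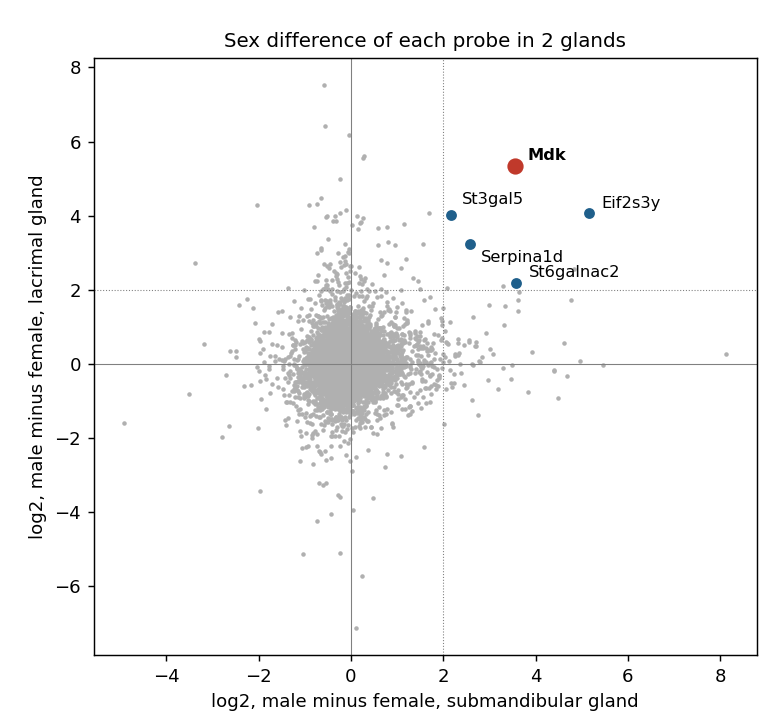
Log2 difference between males and females of each probe with a difference in both glands. The x axis is the submandibular gland and the y axis the lacrimal gland. Mdk lies at 3.56 on the x axis and 5.35 on the y axis, among the few probes far to the upper right, with Eif2s3y at 5.16 and 4.07.

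Which genes had levels most like those of Mdk over the 10 groups? Pearson correlations of group mean log2 levels were taken over 7239 probes with a gene symbol. They are descriptions over 10 points, which share the arrays and mostly follow the same few extreme groups. The highest was that of B2m (0.89), the light chain of MHC class I, and 0 genes exceeded 0.9. B2m measured 99.1, 60.9 and 58.0 in the female lacrimal pools and 395, 242 and 334 in the male ones (2.17 ± 0.45), whereas its submandibular sex difference was small (0.24 ± 0.45). It followed the lacrimal but not the submandibular difference of Mdk.

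After B2m came Haus5 (0.87), a subunit of the augmin complex of the spindle, Serpina1d (0.84), the Janus kinase gene Tyk2 (0.84), Nisch (0.83), the Mediator subunit gene Med24 (0.83), the interferon alpha gene Ifna7 (0.83) and B4galt6 (0.81), a lactosylceramide synthase. Haus5 lay below the 30th percentile on every measured array of 4 groups, and B4galt6 on those of 1 group. B4galt6 was at 0.321 in female and 4.16 in male lacrimal glands, and at 4.27 and 3.80 in the parotid, where Mdk was bright too. Nisch and Med24 moved little, with lacrimal sex differences of 0.43 ± 0.32 and 0.64 ± 0.46, and ranked 645 and 762 when the 26 single arrays were used. The lowest correlations were those of Bri3 (-0.95), the chaperone gene Hspa8 (-0.91), Ext2 (-0.90) and Zswim6 (-0.89). Ext2 encodes a subunit of the polymerase that builds heparan sulfate, and it ran only from 1.54 in male lacrimal to 2.29 in female lacrimal glands. By rank correlation 3 of the 8 most similar genes stayed in the top 8, and over single arrays 5 did.

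**Figure D4:**
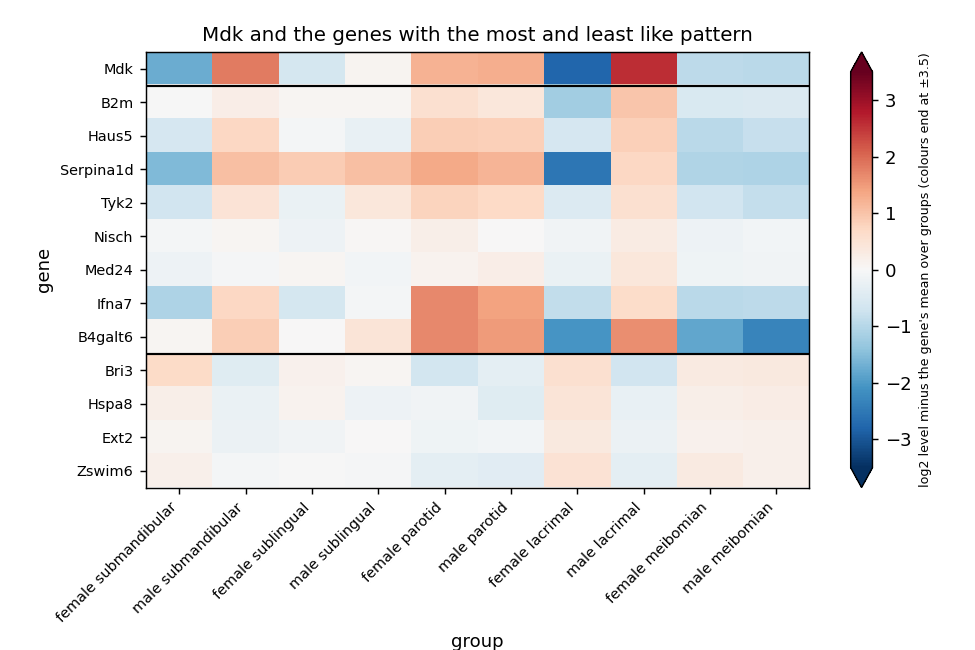
Mean log2 level of each gene minus its mean over the 10 groups, for Mdk, the 8 genes of highest and the 4 of lowest correlation with it. The most similar genes are low in female lacrimal glands and high in male lacrimal and in parotid glands, as Mdk was, with smaller ranges.

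Did the receptors and binding partners of midkine vary with it? Of 28 listed genes 23 were on the array and 19 passed the filter. Ptprz1, Lrp8, Sdc3, Gpc2 and Tspan1 had no probe, and Alk, Ltk, Lrp2 and Itga4 did not pass. Of the 19, 12 (63.2%) were called in at least 1 gland against the other 4 (limma, Benjamini-Hochberg adjusted p under 0.05 and a log2 difference of at least 1), beside 51.9% of all probes. By contrast 1 was called between the sexes in any gland (5.26%, beside 7.68% of all probes). Both shares lie near those of all probes.

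Ptn, the other member of the family, had another pattern. It was measured on 16 of 26 arrays. It was at 3.18 to 5.25 in all 6 meibomian pools, against 0.0549 to 1.29 in every other pool measured (2.92 ± 0.45). The meibomian gland was that of lowest Mdk in males and of the 3rd rank in females. The remaining 10 cells were missing, which left 1 pool in 6 of the groups. Only the meibomian groups had every pool measured. Ptn thus passed the filter only through the gland where it was high, and its call there is no independent support. Its lacrimal sex difference of 2.26 ± 0.86 did not pass (adjusted p = 0.225).

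The meibomian gland was higher in 5 partners and lower in 1 (17% and 20.9% of all probes were called so), with a median of -0.04 beside -0.09 over all probes. Sdc1, a heparan sulfate proteoglycan of epithelia, measured 21.3 to 37.7 in its pools and 1.22 to 2.99 in all others (3.95 ± 0.14, adjusted p = 2.35e-15). The glypicans Gpc3 and Gpc1 were at least 4.45-fold and 3.76-fold higher (2.56 ± 0.33 and 1.93 ± 0.33), and the endocytic receptor gene Lrp1 was higher by 1.56 ± 0.30. The probe named for the brain proteoglycan Ncan was lower (-1.97 ± 0.58, adjusted p = 0.00547), at 10.03 to 36.4 in meibomian pools. That range held the set 1 pools submandibular B (31.8 in females, 20.6 in males) and sublingual A (23.5 and 17.8). Set 2 pools of those glands measured 108 to 191 and 118 to 143.

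In the lacrimal gland, where Mdk differed most, 1 partner was higher and 5 were lower (11.6% and 8.58% of all probes were called so), with a median of -0.46 beside 0.12. Vcan, the matrix proteoglycan versican, was at least 11.9-fold higher (3.93 ± 0.29, adjusted p = 7.03e-10), at 2.68 to 12.9 in females and 1.94 to 6.83 in males. Lower were nucleolin, Ncl, which binds midkine at the cell surface (-1.89 ± 0.22), and the glypican Gpc4 (-1.42 ± 0.23). So were Gpc3 (-1.36 ± 0.33, at least 1.09-fold) and Ptn (-1.38 ± 0.51), the latter with missing cells. The integrin subunit Itga6 was lower as well (-1.04 ± 0.25, adjusted p = 0.00169). Itga6 fell under the minimum difference without male lacrimal A (-0.73), female lacrimal A (-0.92) or male sublingual A (-0.99), while its adjusted p stayed at or below 0.00887.

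The other glands had fewer calls among the partners. They were 1 in the submandibular gland (12.3% of all probes called), 3 in the sublingual (11.2%) and 2 in the parotid (17.1%). Cd74, the invariant chain of MHC class II, was higher in the sublingual gland (1.18 ± 0.16, adjusted p = 1.82e-05). Notch2 was higher in the parotid gland (1.02 ± 0.29, adjusted p = 0.00853), the gland of highest Mdk in females. That call was lost without female parotid A (0.76, adjusted p = 0.104) or male parotid A (0.82, adjusted p = 0.0857), and it fell just under the minimum difference without female lacrimal C, male lacrimal B, female submandibular C or male submandibular C (0.96 to 0.997).

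Between the sexes the call was Sorl1, a sorting receptor of the LDL receptor family, in the lacrimal gland, where it was lower in males (2.53% of all probes were, and 5.43% were called in either direction). It measured 4.95, 4.23 and 7.31 in female pools and 1.60, 0.981 and 3.43 in male pools. It was lower in all 3 male pools, opposite to Mdk (-1.61 ± 0.33, adjusted p = 0.00434), a call lost with array weights (adjusted p = 0.0722), from the lacrimal arrays alone (0.308) and in array set 2 alone (0.112). With the replicate block 3 partners were called there, Sorl1, Sdc1 and Sdc4 (13.5% of all probes). In the submandibular gland 0 partners passed (2.61% of all probes called) and with the block 1, Sdc4 (7.29%). The sublingual (0.208%), parotid (0.0244%) and meibomian (0.0366%) sex comparisons called 0.

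**Figure D5:**
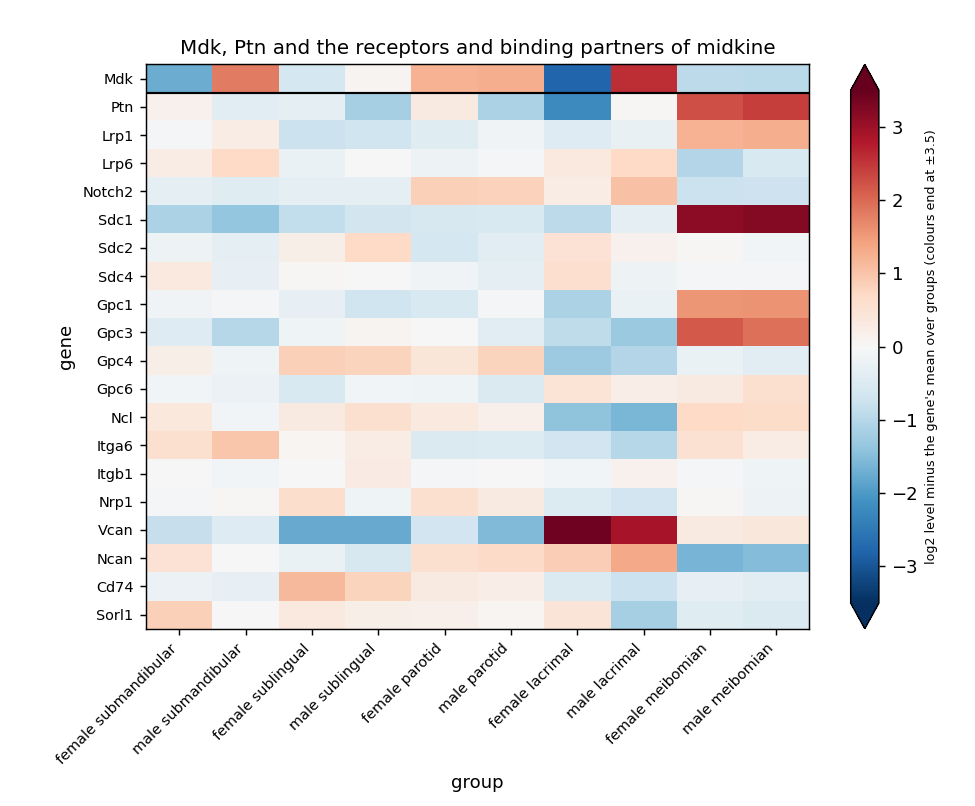
Log2 level minus the gene's mean over the 10 groups for Mdk, Ptn and the other measured receptors and binding partners (rows) in the 10 groups (columns). Colours end at ±3.5. The row of Mdk changes sign between female and male lacrimal and submandibular glands, while Ptn and Sdc1 are high in meibomian glands of both sexes and Vcan in lacrimal glands of both.

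The enzymes that build, sulfate and cut heparan and chondroitin sulfate make the chains that midkine binds. Of 45 listed genes 27 were on the array and 22 passed the filter, 13 of which (59.1%, beside 51.9% of all probes) were called in at least 1 gland. Papss2, which makes the sulfate donor, was at least 27.9-fold higher in the lacrimal gland (5.25 ± 0.25, adjusted p = 1.03e-12). It measured 8.40, 12.5 and 16.7 in females and 4.19, 4.09 and 9.80 in males. Papss2 passed the filter only through the lacrimal groups, so its call there is not independent of the filter. The sexes overlapped, female A lying below male C, and the sex difference was called only with the replicate block. Chst14, a dermatan sulfotransferase, was at least 7.38-fold higher in the meibomian gland (3.13 ± 0.22). B3gat3, which completes the sugar linker of the chains, was higher in the submandibular gland (2.83 ± 0.17), and Hs3st1, a heparan sulfotransferase, at least 3.07-fold higher in the sublingual gland (1.97 ± 0.22). Ugdh was higher (2.002 ± 0.26) and the sulfate donor transporter gene Slc35b2 lower (-1.59 ± 0.13) in the meibomian gland.

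Of these 22 enzymes 1 was called between the sexes (4.55%, beside 7.68% of all probes), which is no more than the background. Hpse, the heparanase that cuts heparan sulfate and releases factors bound to it, measured 6.73, 6.71 and 7.90 in female and 14.98, 15.5 and 11.4 in male lacrimal glands. All male pools lay above the female pools, in the direction of Mdk (0.96 ± 0.19, adjusted p = 0.00218). The call was lost with array weights (adjusted p = 0.0699), from the lacrimal arrays alone (0.393) and in array set 2 alone (0.0892). With the replicate block 5 enzymes (22.7%) were called in the lacrimal gland, where 13.5% of all probes then were.

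Were other heparin-binding growth factors higher in males where Mdk was? Of 29 listed genes 26 were on the array and 21 passed the filter, 18 of which (85.7%, beside 51.9% of all probes) were called in at least 1 gland and 5 (23.8%, beside 7.68%) between the sexes. All 5 were higher in males. In the submandibular gland they were 4 of 21, or 19.0%, against 1.94% of all probes called higher, with a median of 0.39 beside -0.09. Of these 4, Fgf9 passed the filter only through male submandibular glands, where it was high, so the count is not independent of the filter. Vegfa, the vascular growth factor, measured 5.47, 6.19 and 7.96 in female and 24.3, 21.7 and 25.04 in male pools (1.87 ± 0.24, adjusted p = 6.33e-05). Tgfb2 measured 1.38, 1.58 and 1.28 against 4.56, 5.18 and 7.41 (1.99 ± 0.23, adjusted p = 1.67e-05). For both, the lowest male pool stood well above the highest female pool.

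Fgf9 (2.23 ± 0.59, adjusted p = 0.0439) and Fgf1 (1.504 ± 0.28, adjusted p = 0.00306) were the others. Fgf9 was near the threshold: the call was lost when any of 12 of the 26 pools was left out (adjusted p 0.0503 to 0.156), although its male pools measured 1.47 to 1.96 and its female pools 0.305 to 0.461. Fgf1 is outside the rule for named genes and completes the count. Mdk exceeded all 4 in its submandibular difference (3.56).

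In the lacrimal gland 1 of 21 was called higher (2.91% of all probes were), with a median of 0.24 beside -0.03. It was Pgf, placental growth factor, a relative of Vegfa, at 0.789, 0.834 and 0.944 in female and 19.9, 6.95 and 9.44 in male pools (3.68 ± 0.34, adjusted p = 4.07e-07). Male pool A was the highest for Pgf and for Mdk, and pool B the lowest for both. Vegfa and Tgfb2 did not follow Mdk here, at 4.50 and 1.12 in female and 3.35 and 1.34 in male lacrimal glands. By the moderated F test of limma, which 2.63% of all probes passed, the sex differences of Vegfa, Tgfb2 and Pgf differed between glands. Without male lacrimal A, 8 growth factors instead of 5 were called between the sexes in any gland, and with the replicate block 8 (38.1%, when 19.1% of all probes were).

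By gland, the largest growth factor call was that of Hbegf in the meibomian gland (2.75 ± 0.26, at least 4.51-fold higher). Fgf10 in the parotid (2.73 ± 0.22) and Fgf9 in the submandibular gland (2.56 ± 0.34, at least 2.46-fold) followed. Next came Wnt4 in the lacrimal (-2.46 ± 0.41), Bmp7 in the meibomian (2.27 ± 0.25, at least 4.66-fold) and Pgf in the lacrimal gland (2.26 ± 0.20). Hbegf passed the filter only through the meibomian groups and Fgf9 only through male submandibular glands, so these calls are not independent of the filter. Fgf10, a mesenchymal factor of gland branching, shared with Mdk its highest gland in females, the parotid, at 3.87 in females and 4.21 in males against at most 1.18 elsewhere.

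Retinoic acid is a known inducer of Mdk. Of 24 listed genes of its synthesis, transport and receptors 17 were on the array and 13 passed the filter, 6 of which (46.2%, beside 51.9% of all probes) were called in at least 1 gland. The lacrimal gland was lower in Aldh1a7 (-3.43 ± 0.21, at least 6.28-fold), Aldh1a1 (-1.96 ± 0.17), a retinal dehydrogenase, and the retinol carrier gene Rbp4 (-2.13 ± 0.22). The meibomian gland was higher in Rdh11 (2.49 ± 0.18, measured on 18 arrays), Rarg (1.83 ± 0.24, at least 2.72-fold) and Nrip1 (1.03 ± 0.45, adjusted p = 0.0464). The Nrip1 call was lost when any of 19 pools was left out. Rdh11, Rarg and Nrip1 passed the filter only through the meibomian groups, so their calls there are not independent of the filter.

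Between the sexes 1 of the 13 was called (7.69%, beside 7.68% of all probes). The retinoid receptor gene Rxrg was lower in male submandibular glands (as were 0.671% of all probes), at 2.12, 2.48 and 2.73 against 4.31, 4.79 and 5.02 in females (-0.95 ± 0.22, adjusted p = 0.0194), opposite to Mdk. It no longer passed when male submandibular A (-0.85, adjusted p = 0.124), male submandibular B (-0.97, adjusted p = 0.0663), female submandibular C (-0.90, adjusted p = 0.0775) or female submandibular B (-0.94, adjusted p = 0.0787) was left out. In the lacrimal gland 0 of the 13 were called between the sexes (5.43% of all probes were), and with the replicate block 2, Rara and Ncoa1 (13.5% of all probes).

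Of the 5 loci on each side of Mdk in the RefSeq annotation (assembly GRCm38.p6), Chrm4 and Creb3l1 were on the array. Chrm4, the adjacent gene, encodes a muscarinic receptor, and Creb3l1 a transcription factor of secretory cells. Neither was called between the sexes in the glands where Mdk differed most: the lacrimal difference was -0.30 for Chrm4 (adjusted p = 0.763) and -0.24 for Creb3l1 (0.9), and the submandibular 0.13 (0.991) and -0.55 (0.826). By gland Creb3l1 was higher in the parotid (3.91 ± 0.29) and sublingual (1.83 ± 0.29) and lower in the lacrimal (-1.03 ± 0.25) and meibomian glands (-4.71 ± 0.25), and Mdk was likewise highest in the parotid and lowest in the meibomian gland when the sexes were averaged.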

How the data were processed

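The values deposited by the authors were linear intensities of 10500 probes on 26 arrays. What the authors did to make them is not given in the sources used here. They show scaling within arrays and a subtracted background. Cells of exactly -1 (2241 of 273000, on 835 probes) were taken as missing. Values under 0.0234, the 1st percentile of the positive ones, were set to it before taking log2. The filter asked that a probe be at or above the array's 30th percentile on all arrays of some group, and 8191 probes passed. A probe could thus pass through a single gland where it was high, as Ptn, Papss2, Hbegf, Fgf9, Rdh11, Rarg and Nrip1 did. A probe below that percentile on all arrays of a group is dim there, and its fold is given as a bound ("at least"). Symbols came from the platform annotation: 8983 probes had 1, 1 had several and 1516 none, and 8975 matched RefSeq (GRCm38.p6).

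limma 3.58.1 (R 4.3.3) fitted 10 group means (16 residual and 4.15 prior degrees of freedom). The contrasts were male minus female within a gland and each gland with the mean of the other 4, sexes weighted equally. The Benjamini-Hochberg adjustment ran over all probes at 0.05, and a gland call also needs a log2 difference of at least 1. Levels are geometric means, errors are SE, and the number of arrays limits the precision. Pools are separate animals per the labels.

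Mdk, the gene lists and the tests were chosen with earlier results of these data known. Named genes are all called midkine partners, up to 6 genes per other list for glands and 4 for sex by size of difference, the 2 measured neighbours, and the 8 genes most and 4 least correlated with Mdk. Eif2s3y, St3gal5, St6galnac2 and Fgf1 are outside this rule.

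Pool letters pair the sexes: in glands with 3 pools the 9 same-letter pairs of arrays had correlated deviations (0.441 to 0.816 over 7555 probes), each the best of its gland. The replicate block (gland and letter) was therefore run beside the fit without it. On simulated data the lacrimal sex comparison recovered 20.9%, 80.6% and 100% of genes changed by 1, 2 and 4 on the log2 scale. The simulated noise was independent between arrays, without the array sets or the pairing by letter, so these shares need not hold for the measured arrays. Alternatives were the floor, the filter, the missing code, normalization, array weights, the block, the gland's own arrays, each pool left out, and, chosen after seeing the data, array set 2 alone and the set as a term.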

Additional observations from a re-analysis of the deposited data

Results flagged for a closer look

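The sex difference of 3 heparin-binding growth factors differed between the 5 glands by limma's moderated F test, which 2.63% of all probes passed. For Pgf (adjusted p = 0.00016) the male excess was in the lacrimal gland, at 10.9 against 0.853. For Tgfb2 (adjusted p = 0.00272) and Vegfa (adjusted p = 0.00274) it was in the submandibular gland, at 5.59 against 1.41 and 23.6 against 6.46. Mdk had a male excess in both glands, and its own difference between glands was not tested, since the gene was chosen for it.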

How the results depend on the processing

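No called value changed sign. The Mdk differences near 0 did in some alternatives: the sex difference in the parotid (3 of 38) and meibomian gland (5 of 38), and the submandibular (3 of 36), sublingual (2 of 36) and lacrimal gland (1 of 36) against the others, within -0.662 to 0.370. Of 370 alternative values of the Mdk differences 365 moved by less than the SD between pools (0.571). The others were the lacrimal sex difference within array set 1 (4.044) and set 2 (5.996, also in set 2 alone) and the sublingual one, which ran from 0.0547 to 1.398 over the pools left out. The lacrimal difference ran from 4.968 to 5.673 and the submandibular from 3.282 to 4.006.

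Of 38 gene calls 31 held under all alternatives run. Besides the pools named with each gene, Sorl1, Hpse, Itga6, Notch2, Fgf9, Nrip1 and Rxrg were lost in 3, 3, 3, 1, 4, 6 and 2 other settings, Notch2 in set 2 alone (adjusted p = 0.297). Calls by sex depended most on the fit. With the replicate block partners, sulfate enzymes, growth factors and retinoic acid genes had 3, 5, 8 and 3 instead of 1, 1, 5 and 1, while the share of all probes rose from 7.68% to 19.1%, and the block changed no count of gland calls by over 1.5 times. With array weights, and likewise in set 2 alone, the partners had 0, the enzymes 0 and the retinoic acid genes 2. With the gland's own arrays these 3 lists had 0, and with quantile normalization the enzymes had 2. Over the pools left out, the partners had 1 to 2 (2 without female lacrimal C), the enzymes 1 to 2 (2 without male lacrimal A), the growth factors 4 to 8 and the retinoic acid genes 0 to 2 (2 without female lacrimal A). Of the 8 genes most like Mdk, 3 stayed by rank correlation and 5 over single arrays. The causes were not tested. Dim signal limits the genes given as bounds.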
